A study of Homo sapiens with 6 samples.

Results

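Nucleic acid in the cytosol is read by a short chain of sensors, adaptors and transcription factors, and 9 genes of that chain were followed after plasmid transfection of HEK293, a line derived from human embryonic kidney. The genes were chosen by symbol (DDX58, IFIH1, MB21D1, MAVS, TMEM173, TBK1, IRF3, STAT2 and IFIT1), and all 9 were found among the 30960 genes of the deposited table. The tested cells received a plasmid encoding GFP fused to PKI1-24 (PKI), a fragment of the protein kinase A inhibitor. The control cells received a plasmid for GFP fused to inPKI1-24 (inPKI). Cells of both groups were transfected with Lipofectamine 3000 at 158 ng of plasmid per square centimetre and harvested after 48 h, and each group held 3 libraries, A, B and C. All 6 libraries therefore carry plasmid DNA and transfection reagent, and no library of untransfected cells is among those analysed here. The values compare 1 fusion with the other and do not measure a response to transfection itself. The treatment protocol describes transfection, while the series' design text speaks of transduction. The share of cells that took up plasmid is not given in the sources used here.

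RIG-I (encoded by DDX58) and MDA5 (IFIH1) bind viral-type RNA and signal through MAVS on mitochondria. The enzyme cGAS (MB21D1) binds DNA in the cytosol, plasmid DNA included, and makes a cyclic dinucleotide that activates STING (TMEM173). Both routes reach the kinase TBK1, which phosphorylates IRF3, and IRF3 switches on type I interferon. Secreted interferon then acts through a complex that includes STAT2 and IRF9 on interferon-stimulated genes such as IFIT1. HEK293 cells are widely used as a background for such work because their own cGAS and STING are low.

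Interferon-stimulated genes are known for a promoter element, the interferon-stimulated response element, whose core is a repeat of GAAA. The stretches below hold the matches to this core among the 9 genes. The letters GAAA, any 2 bases and GAAA were searched on both strands (read as TTTC, any 2 bases and TTTC on the other) in RefSeq promoter windows of GRCh38.p14 that run from 250 bases before to 50 bases after a gene's start. Of the 9 genes 6 had a window, and MB21D1, TMEM173 and IRF3 had none in the table used. IFIT1 held 2 matches and IFIH1 held 3, of which a pair overlap, while DDX58, MAVS, TBK1 and STAT2 held 0. Over all 35116 windows 3.57% held at least 1 match. Matches are in capitals below, each line reads 5′ to 3′ on the gene's strand, positions are counted from RefSeq's start, and a match is only a description of the letters.
IFIT1, chr10:89392493-89392552, plus strand, 130 to 71 bases before the start: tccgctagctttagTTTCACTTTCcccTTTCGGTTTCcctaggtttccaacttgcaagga
IFIH1, chr2:162318795-162318854, minus strand, 170 to 111 bases before the start: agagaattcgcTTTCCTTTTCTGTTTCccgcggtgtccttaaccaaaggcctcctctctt
IFIH1, chr2:162318685-162318734, minus strand, 50 to 1 bases before the start: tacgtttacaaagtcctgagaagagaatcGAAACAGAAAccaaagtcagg

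Whole reads recovered from the deposited CPM (counts scaled to library size) came to 17244715 to 23589438 per library, so 1 read was worth 0.0333 to 0.0437 CPM. These totals cover the deposited genes only, whose CPM summed to 754299 to 785007 per library, and the full depth may be larger. PKIA, the gene of the PKI fusion, measured 43.9 ± 1.96 CPM in PKI and 9.68 ± 1.46 CPM in inPKI (SD, n = 3 each), and the libraries separated by their labels. Plasmid reads and reads of the cells' own PKIA cannot be told apart in either group's value. Whether the control plasmid, which encodes inPKI, also adds reads to PKIA was not tested. Of 12 genes listed as HEK293 markers 11 passed the filter on low values, with vimentin (VIM) at 605 ± 41.3 CPM in PKI and 638 ± 12.5 CPM in inPKI, and the neurofilament gene NEFM at 129 ± 9.80 CPM in PKI and 133 ± 1.34 CPM in inPKI. The neurofilament gene NEFL averaged 59.8 CPM in PKI and 68.5 CPM in inPKI, and the keratin gene KRT8 averaged 8.75 CPM in PKI and 7.71 CPM in inPKI. None of the 11 passed the limma test described below, where the smallest adjusted p was that of ENO2 (0.154), at 8.73 CPM in PKI and 6.50 CPM in inPKI, and DESeq2 called NEFL (adjusted p = 0.0471). The 13 leukocyte markers in the table summed to 5.02 to 5.77 CPM in PKI and 3.72 to 5.58 CPM in inPKI. Of these markers, CD8A and HLA-DRA averaged 1.62 and 0.900 CPM in PKI, against 1.16 and 1.02 CPM in inPKI. CD3E had 0 reads in all 6, and the pan-leukocyte gene PTPRC had 1 read in PKI A and 0 in the other libraries. The 10 fibroblast markers summed to 20.5 to 24.0 CPM in PKI and 19.7 to 22.2 CPM in inPKI, most of it from COL1A1 at 18.5 CPM in PKI and 17.5 CPM in inPKI, with COL3A1 at 2.05 CPM in PKI and 2.09 CPM in inPKI and DCN at 0 reads in all 6. The labels do not state whether a group's libraries are separate cultures, so p-values measure only the spread between these samples, which may be technical.

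The first question was which links of the chain had any RNA in these cells. To compare levels between genes, CPM was divided by the annotated exon length in kilobases, the union of exons over all annotated transcripts. On that scale IRF3 was the highest at 11.6 to 12.9 CPM per kilobase over the 6 libraries, followed by MAVS at 7.99 to 8.85, TBK1 at 6.53 to 7.13 and STAT2 at 3.11 to 4.20. These 4 ranges did not overlap, but their order depends on the lengths used. By CPM alone MAVS averaged 97.7 and IRF3 47.7 over the 6 libraries. IFIT1 at 0.689 to 1.04 CPM per kilobase and DDX58 at 0.565 to 0.806 came next, and their ranges overlapped. TMEM173 lay at 0.0173 to 0.0663, MB21D1 at 0 to 0.0737 and IFIH1 at 0 to 0.0153 CPM per kilobase, and these 3 could not be ordered. The kinase, the transcription factors and the RNA adaptor were thus measured with 487 to 2926 reads per library, while cGAS, STING and MDA5 had at most 7 reads in any library.

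**Figure D1:**
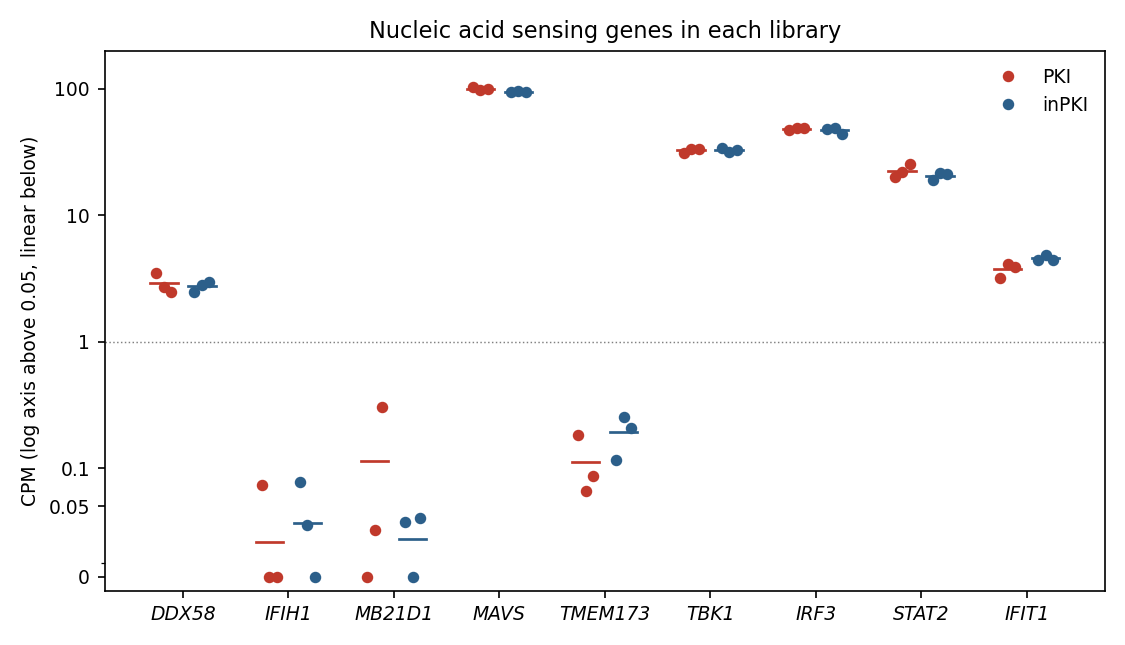
CPM of the 9 genes in each of 3 PKI (red) and 3 inPKI (blue) libraries, with the group mean as a bar; the axis is logarithmic above 0.05 CPM and linear below, and the dotted line marks the 1 CPM used as a filter. MAVS, TBK1, IRF3 and STAT2 lie between 19.0 and 104 CPM, DDX58 and IFIT1 between 2.46 and 4.81 CPM, and IFIH1, MB21D1 and TMEM173 below 0.31 CPM in all 6 libraries.

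The RNA sensor genes differed widely in level. DDX58 (ENSG00000107201.9, chromosome 9, 32455705 to 32526324, minus strand, GENCODE 29 on GRCh38) measured 3.51, 2.70 and 2.49 CPM in PKI A, B and C, against 2.46, 2.81 and 2.98 CPM in inPKI A, B and C. The highest value was that of PKI A, and the groups overlapped. Its coefficient of variation was 18.5% in PKI and 9.67% in inPKI, where counting error alone gives 11.3% in PKI and 11.9% in inPKI. The log2 change, PKI minus inPKI, in the test described below was 0.051 ± 0.13 (SE, limma adjusted p = 0.893), with a 95% interval of -0.24 to 0.34. IFIH1 (ENSG00000115267.5, chromosome 2, 162267079 to 162318703, minus strand), whose promoter stretches are printed above, had 2, 0 and 0 reads in PKI A, B and C, against 2, 1 and 0 reads in inPKI A, B and C. Summed over 3 libraries that is 2 reads in PKI (95% Poisson interval 0.242 to 7.22) and 3 in inPKI (0.619 to 8.77), and these intervals cover counting error only. Per library a count of 0 allows up to 3 reads, which is 0.0998 to 0.131 CPM. No difference in IFIH1 was detectable at this depth.

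The DNA branch of the chain was as scarce. MB21D1 (ENSG00000164430.15, chromosome 6, 73413515 to 73452276, minus strand) had 0, 1 and 7 reads in PKI A, B and C, against 1, 0 and 1 reads in inPKI A, B and C. The 7 reads of PKI C, or 0.306 CPM, made up nearly all of the 8 in PKI. The ratio of summed reads per read recovered, PKI over inPKI, was 3.88 with a counting interval of 0.774 to 37.5. TMEM173 (ENSG00000184584.12, chromosome 5, 139475534 to 139482935, minus strand) had 5, 2 and 2 reads in PKI A, B and C, against 3, 7 and 5 reads in inPKI A, B and C, and the groups overlapped. Its ratio was 0.582, with an interval of 0.225 to 1.42. Two-sided exact permutation tests of CPM gave p = 0.9 for MB21D1, 0.2 for TMEM173 and 0.7 for IFIH1, and with 3 libraries against 3 such a test cannot go below 0.1. In RNA from whole cultures, fewer cells with the transcript and less transcript per cell cannot be told apart.

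The other 6 genes passed the filter of at least 1 CPM in at least 3 of the 6 libraries and entered a linear model over all 14275 genes that did (limma on log2(CPM + 1), Benjamini-Hochberg adjustment, threshold 0.05). Of the 6 genes 0 passed the threshold, where 18 of all genes tested did, or 0.126% (0.0981% higher and 0.028% lower in PKI). Taking unadjusted p below 0.05 instead gave 0 of the 6 as well, against 13.7% of all genes tested. The count was 0 in edgeR, and 0 in DESeq2 among the 3 to which it gave an adjusted p (MAVS, TBK1 and IRF3). With the library letter as a replicate block it was 0 as well, where 0.869% of all genes tested passed. The median log2 change of the 6 was 0.048, with 4 above 0 and 2 below, beside a median of -0.0074 over all genes tested. The plot of changes with their intervals shows how large a difference these libraries leave room for.

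MAVS, the adaptor of the RNA sensors, was the most abundant of the 9 genes by reads. The gene (ENSG00000088888.17) lies on chromosome 20, 3846799 to 3876123, plus strand. It measured 104, 97.4 and 99.9 CPM in PKI A, B and C, against 95.1, 95.6 and 94.1 CPM in inPKI A, B and C. Each PKI library lay above each inPKI library, and the inPKI values were tightly grouped. The log2 change, PKI minus inPKI, was 0.080 ± 0.051 (SE, limma adjusted p = 0.498), with a 95% interval of -0.028 to 0.19. An increase of more than 1.14-fold on the CPM + 1 scale thus lies outside the interval. MAVS is annotated with 11771 bases of exon, the longest of the 9 genes. Across all 14242 tested genes with a length, the log2 change rose with exon length (Spearman's rho across genes 0.41, a description, since genes are not independent and share the 6 libraries). With that trend subtracted, which was added after the data had been seen, the log2 change of MAVS was 0.0030 and its groups overlapped.

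**Figure D2:**
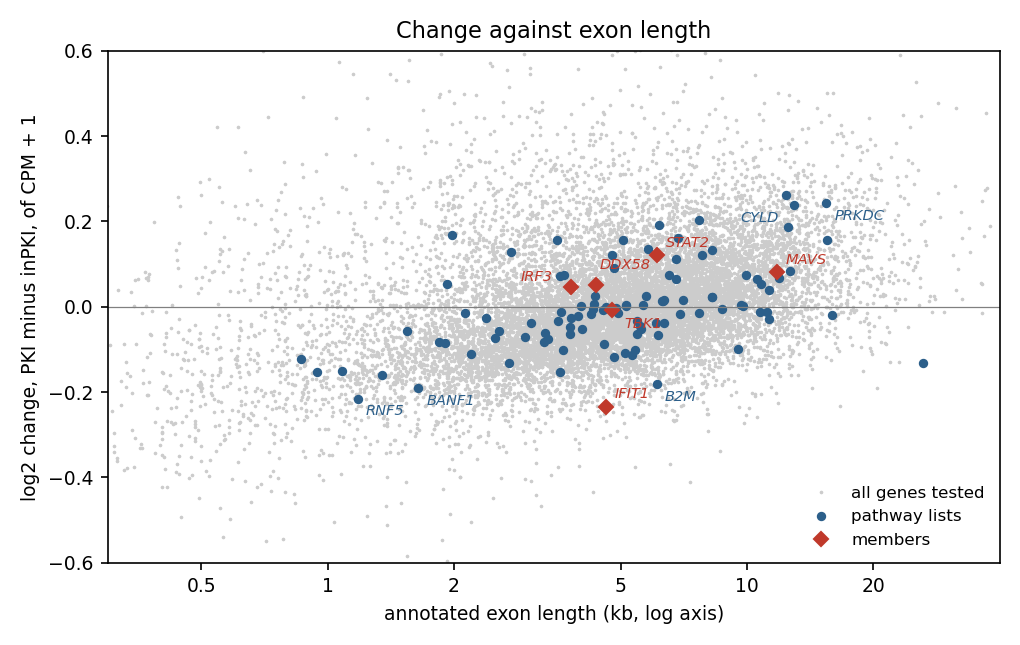
Log2 change, PKI minus inPKI, of CPM + 1 (vertical) against annotated exon length in kb (horizontal, log axis) for all tested genes (grey), pathway genes (blue) and the 6 tested members (red); 91 genes lie outside the axes. Longer transcripts tend to lie above 0, with MAVS at 0.080 and PRKDC at 0.24 among them, while the short RNF5 lies at -0.22 and IFIT1 at -0.23 falls below the trend.

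TBK1, the kinase on which both branches converge, had the smallest change of the 6. The gene (ENSG00000183735.9) lies on chromosome 12, 64451880 to 64502108, plus strand. It measured 31.1, 33.4 and 33.5 CPM in PKI A, B and C, against 34.0, 31.5 and 32.9 CPM in inPKI A, B and C. The groups overlapped fully, with the lowest value in PKI A and the highest in inPKI A. The log2 change was -0.0064 ± 0.061 (SE, limma adjusted p = 0.975), with a 95% interval of -0.14 to 0.12.

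IRF3, the transcription factor that TBK1 phosphorylates, had a similarly narrow interval. It is encoded on chromosome 19, 49659569 to 49665875, minus strand (ENSG00000126456.15). It measured 47.7, 48.8 and 49.0 CPM in PKI A, B and C, against 48.2, 48.7 and 44.1 CPM in inPKI A, B and C. The lowest value was that of inPKI C, the other libraries lay within 47.7 to 49.0 CPM, and the groups overlapped. The log2 change was 0.045 ± 0.057 (SE, limma adjusted p = 0.754), with a 95% interval of -0.077 to 0.17. Activity of TBK1 and IRF3 is set by phosphorylation, which RNA levels do not measure.

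STAT2, part of the transcription complex that answers type I interferon, had its highest value in PKI C. The gene (ENSG00000170581.13) lies on chromosome 12, 56341597 to 56360155, minus strand. It measured 20.1, 21.8 and 25.7 CPM in PKI A, B and C, against 19.0, 21.6 and 21.1 CPM in inPKI A, B and C. The log2 change was 0.12 ± 0.087 (SE, limma adjusted p = 0.556), with a 95% interval of -0.065 to 0.31. PKI C carried much of it, since without PKI C the log2 change was 0.026. For comparison, its partner IRF9 in the same complex, given here for its role with values known, measured 2.77 CPM in PKI and 2.84 CPM in inPKI (means, n = 3 each).

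IFIT1, an interferon-stimulated gene whose protein binds foreign RNA, had the smallest p of the 6 tested members. The gene (ENSG00000185745.9) lies on chromosome 10, 89392546 to 89406486, plus strand, and its promoter stretch with 2 matches is printed above. It measured 3.18, 4.13 and 3.94 CPM in PKI A, B and C, against 4.41, 4.81 and 4.47 CPM in inPKI A, B and C. All 3 PKI libraries lay below all 3 inPKI libraries. The log2 change was -0.23 ± 0.12 (SE, limma adjusted p = 0.397, unadjusted p = 0.0650), with a 95% interval of -0.48 to 0.017, and it was below 0 in the 15 alternative settings that gave an adjusted p, at -0.29 to -0.13, with adjusted p from 0.284 to 0.708. IFIT1 rested on 86 to 124 reads per PKI library and 108 to 132 per inPKI library, where counting alone gives a coefficient of variation of 10.0% in PKI and 9.22% in inPKI. The measured ones were 13.4% in PKI and 4.81% in inPKI. With the length trend removed its log2 change was -0.22 and its groups still did not overlap.

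Counting all 9 genes, the groups did not overlap in 2, MAVS with PKI higher and IFIT1 with PKI lower. Of the 6 tested genes that is 33.3%, and of all 14275 genes tested 19.7% did not overlap (10.9% with PKI higher, 8.88% with PKI lower), so with so few members this count is not set apart from the rest of the table. Leaving out PKI A gave 4 of the 6 tested genes (IRF3 and STAT2 in addition), where the share of all genes tested was 31.7%, and 5 of the 9 with TMEM173, which was not tested. The 3 tested genes whose log2(CPM + 1) ran most alike to IFIT1 over the 6 libraries were EFHD2 (Pearson's r = 0.988), HOXA9 (0.982) and MALSU1 (0.980). These values describe 6 libraries searched over 14275 genes, and they say nothing of shared control.

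**Figure D3:**
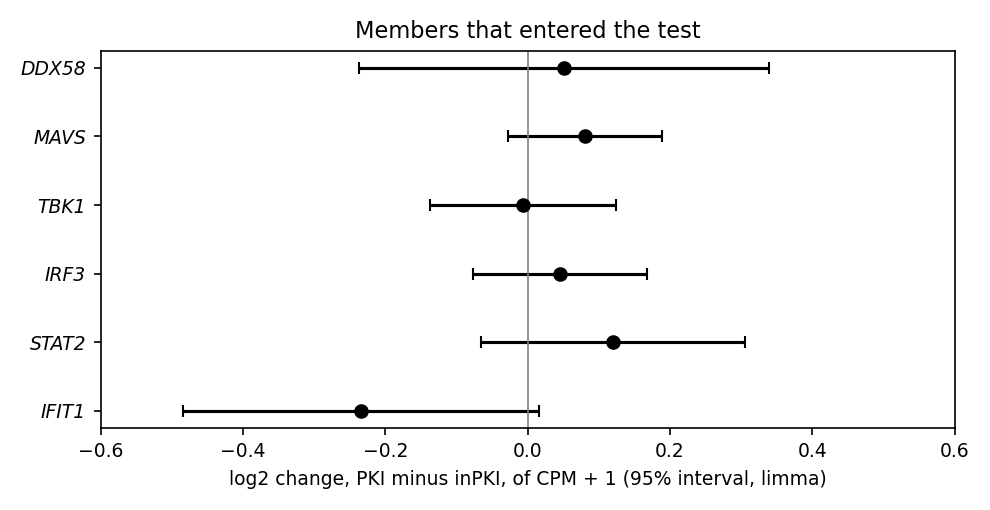
Log2 change, PKI minus inPKI, of CPM + 1 (points) with the 95% interval from limma (bars) for the 6 members that entered the test, 3 libraries in each group. All 6 intervals cross 0; IFIT1 reaches from -0.48 to 0.017 and TBK1 from -0.14 to 0.12.

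Around the 9 genes, 6 lists of pathway genes were followed in the same fit. They name 168 different genes, of which 155 were in the table and 101 were tested. Of the 101, 0 passed the threshold in limma and 0 in edgeR, against 0.126% of all genes in limma. DESeq2 called 3 (PRKDC higher, BANF1 and B2M lower), where it called 1.77% of all genes tested (0.834% higher and 0.939% lower in PKI). Unadjusted limma p-values below 0.05 were found for 10 of the 101 (5 higher, 5 lower), beside 13.7% of all genes. The median log2 change of the 101 was -0.012, beside -0.0074 for all genes tested. Exon length and log2 change went together here too (Spearman's rho across the 101 genes 0.50), and values with that trend removed are given beside some of the genes below. What part exon length has in these changes was not tested.

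**Figure D4:**
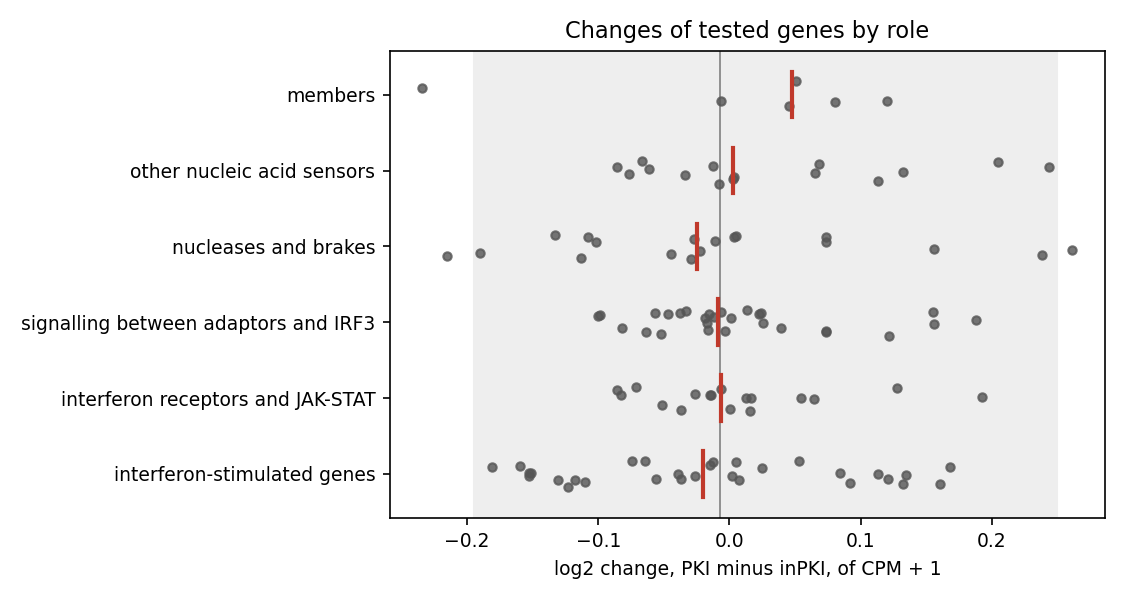
Log2 change, PKI minus inPKI, of CPM + 1 for each tested gene (points) of the 9 members and 5 pathway lists, with each list's median as a red bar; the grey band spans the 5th to 95th percentile of all 14275 tested genes (-0.19 to 0.25) and the grey line their median. The list medians lie between -0.025 and 0.048. No point passed an adjusted p of 0.05 in limma on all 6 libraries, while DESeq2 called PRKDC, BANF1 and B2M.

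Among other nucleic acid sensors, 22 of 25 listed genes were in the table and 15 were tested, with 0 past the threshold in limma. An unadjusted p below 0.05 was found for 2 of the 15, beside 13.7% of all genes tested. These 2 were subunits of DNA repair machines that have also been described as DNA sensors. PRKDC, the catalytic subunit of DNA-dependent protein kinase, measured 718 ± 27.0 CPM in PKI and 606 ± 4.77 CPM in inPKI (SD, n = 3 each), without overlap. Its log2 change was 0.24 ± 0.064 (SE, limma adjusted p = 0.145). It passed by DESeq2 (adjusted p = 7.14e-05) and in limma without PKI C (0.0161), and over all alternatives the adjusted p ranged from 7.14e-05 to 0.537. PRKDC has 15417 bases of exon, and with the length trend removed its log2 change was 0.14. MRE11, a nuclease of the break repair complex, had a log2 change of 0.20 ± 0.074 (SE, limma adjusted p = 0.258), also without overlap, and PQBP1, a cofactor of cGAS, -0.086 ± 0.058. With the length trend removed these were 0.17 for MRE11 and -0.0070 for PQBP1. XRCC6, which encodes the Ku subunit of the same kinase complex as PRKDC, averaged 705 ± 61.4 CPM in PKI and 734 ± 10.4 CPM in inPKI. The sensors that are also on the list of interferon-stimulated genes, named here for that role with values known, spanned a wide range of levels. EIF2AK2, the RNA-activated kinase PKR, had 50.3 to 53.4 CPM over the 6 libraries, OAS3 had 2.26 to 2.84 CPM and DDX60 had 1.57 to 2.66 CPM. DHX58, a relative of RIG-I, had 0.207 to 0.438 CPM, IFI16 0.0333 to 0.234 CPM, OAS2 0 to 0.165 CPM and OAS1 0 to 0.0827 CPM. The endosomal RNA sensor TLR3 had 0.0780 to 0.248 CPM, and the inflammasome sensor AIM2 had 0 reads in all 6.

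The list of nucleases and brakes holds enzymes that remove stray nucleic acid and proteins that restrain the pathway. Of its 20 genes 18 were tested, 0 passed the threshold in limma and 4 had unadjusted p-values below 0.05, beside 13.7% of all genes tested. CYLD, a deubiquitinase, measured 20.4 ± 1.80 CPM in PKI and 17.1 ± 0.0633 CPM in inPKI, with a log2 change of 0.24 ± 0.076 (SE, limma adjusted p = 0.210). RNF5, a ubiquitin ligase that acts on STING, measured 33.9 ± 3.11 CPM in PKI and 39.4 ± 1.72 CPM in inPKI, with a log2 change of -0.22 ± 0.070 (limma adjusted p = 0.214). BANF1, a chromatin protein that shields DNA from cGAS, had -0.19 ± 0.067 (limma adjusted p = 0.239, DESeq2 adjusted p = 0.0490). With the length trend removed these 3 changes were 0.15, -0.12 and -0.10. ADAR, the editing enzyme that marks RNA as self, was the most abundant at 281 ± 13.5 CPM in PKI and 280 ± 4.52 CPM in inPKI (SD, n = 3 each), and its log2 change was 0.0053 ± 0.056, or -0.050 with the length trend removed.

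The list of signalling genes between the adaptors and IRF3 had 28 of 31 genes tested, of which 0 passed in limma. In 2 of the 28 the unadjusted p lay below 0.05, beside 13.7% of all genes tested. These 2 were the coactivator genes EP300 and CREBBP, whose proteins bind activated IRF3. EP300 measured 150 ± 13.4 CPM in PKI and 131 ± 8.06 CPM in inPKI, and its log2 change was 0.19 ± 0.068 (SE, limma adjusted p = 0.259). CREBBP had 0.16 ± 0.060 (limma adjusted p = 0.285). Both have long transcripts, and with the length trend removed the values were 0.10 for EP300 and 0.050 for CREBBP. IKBKG, which encodes the scaffold NEMO and has a near-identical pseudogene copy that makes its reads uncertain, had 0.16 ± 0.087. The most abundant members, the AP-1 factor gene JUN at 668 ± 21.4 CPM in PKI and 684 ± 12.6 CPM in inPKI and the RNA helicase gene DDX3X at 457 ± 13.1 CPM in PKI and 463 ± 14.9 CPM in inPKI, overlapped between the groups (limma adjusted p = 0.851 for JUN and 0.917 for DDX3X). With the length trend removed the log2 change of DDX3X was -0.13, beside -0.019 with it.

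The receptor and JAK-STAT list was present almost in full, with 17 of 18 genes tested, 0 past the threshold in limma (0 also without adjustment), and 0 by edgeR and DESeq2. JAK2 measured 4.37 ± 0.196 CPM in PKI and 3.71 ± 0.522 CPM in inPKI, with a log2 change of 0.19 ± 0.12 (SE, limma adjusted p = 0.486). IFNGR1, a subunit of the interferon gamma receptor, had -0.082 ± 0.061 (-0.040 with the length trend removed), and TYK2, a kinase of the interferon receptor, measured 84.8 ± 2.39 CPM in PKI and 81.0 ± 1.18 CPM in inPKI (log2 change 0.064 ± 0.051). PTPN11, which encodes the phosphatase SHP2, was the most abundant at 262 ± 6.37 CPM in PKI and 259 ± 7.28 CPM in inPKI. The type I interferon receptor genes, given for their role with values known, averaged 55.7 CPM in PKI and 55.1 CPM in inPKI for IFNAR1, and 17.2 CPM in PKI and 17.2 CPM in inPKI for IFNAR2.

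The interferon genes themselves were at or near 0. Of 23 interferon and induced cytokine genes listed, 13 were in the table, 0 passed the filter, and 11 had at most 3 reads in every library. Of all 30960 genes, 14275 passed the filter and 8767 had at most 3 reads in every library. IFNB1, the interferon beta gene, had 0 reads in all 6 libraries, as did IFNA1, IFNE and IFNL1, which are given for their role with values known. A count of 0 allows up to 3 reads, or 0.0998 to 0.131 CPM, in a library. The interferon-induced chemokine gene CXCL10 had 1 read in PKI A and 0 in the other 5. The highest genes of the list were CXCL8 at 0.0858 ± 0.0481 CPM in PKI and 0.108 ± 0.122 CPM in inPKI and IL6 at 0.0456 ± 0.0505 CPM in PKI and 0.0754 ± 0.0610 CPM in inPKI (SD, n = 3 each). The whole list summed to 0.0875 to 0.233 CPM in PKI and 0.234 to 0.331 CPM in inPKI, from a handful of reads per library.

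Interferon-stimulated genes, the output that IFIT1 belongs to, were tested for 30 of 63 listed genes. In all 6 libraries 31 of the 63 lay below 1 CPM, as did 15915 of all 30960 genes, so that share is not particular to the list. Among the 31 were MX1 (0.0437 to 0.248 CPM), OAS1 (0 to 0.0827 CPM) and RSAD2 (0 to 0.0414 CPM), which are strongly induced by interferon and are named here with values known. Of the 30, 0 passed in limma, 0 in edgeR and 1 in DESeq2. Unadjusted limma p-values lay below 0.05 for 2, beside 13.7% of all genes tested. The median log2 change was -0.020, with 13 above 0 and 17 below, beside -0.0074 for all genes tested. IFIT1's neighbours in its own family, also named with values known, were IFIT5 at 23.3 CPM in PKI and 23.3 CPM in inPKI, IFIT3 at 0.484 CPM in PKI and 0.498 CPM in inPKI, and IFIT2 at 0.196 CPM in PKI and 0.0780 CPM in inPKI, and their groups overlapped. ISG15, a ubiquitin-like protein gene, averaged 1.87 CPM in PKI and 2.21 CPM in inPKI.

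The interferon-stimulated gene with the smallest p serves antigen presentation. B2M, the light chain of class I molecules, measured 81.2 ± 4.68 CPM in PKI and 92.1 ± 2.23 CPM in inPKI (SD, n = 3 each), without overlap. Its log2 change was -0.18 ± 0.056 (SE, limma adjusted p = 0.198), and -0.19 with the length trend removed. It passed by DESeq2 (adjusted p = 0.0459), and its adjusted p ranged from 0.0459 to 0.537 over the alternatives. HLA-C, which encodes a class I heavy chain, averaged 202 ± 11.9 CPM in PKI and 213 ± 7.40 CPM in inPKI, with overlap. Class I genes resemble each other, so reads may be split among them. LGALS3BP, a secreted glycoprotein gene, had -0.15 ± 0.090 (limma adjusted p = 0.467).

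The authors' deposited table of their own comparison was compared as a second source. Its log2 changes, turned here to PKI over inPKI because the column runs the other way, were 0.091 for DDX58, 0.093 for MAVS, 0.0049 for TBK1, 0.055 for IRF3, 0.14 for STAT2 and -0.27 for IFIT1, and 0 of the 9 members passed an adjusted p of 0.05 in the authors' deposited table, where 14 genes did. For MB21D1 the authors' deposited table gives a log2 change of 1.99 with a standard error of 1.19. For IFIH1 it gives -0.63 with a standard error of 1.33, and for TMEM173 -0.78 with 0.64, turned likewise. The baseMean of the authors' deposited table, its mean of normalised reads, exceeded the reads of the 6 libraries for several members. It was 752 for IFIH1, where the 6 libraries averaged 0.817 reads, and 540 for DDX58, where they averaged 74.0. For TBK1 it was 663, where the 6 libraries averaged 858. Across tested genes the median ratio of baseMean to mean reads was 0.715. All 2069 genes with 0 reads in the 6 libraries have a baseMean above 0 in the authors' deposited table. Which libraries entered the authors' fit is not given in the sources used here.

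**Figure D5:**
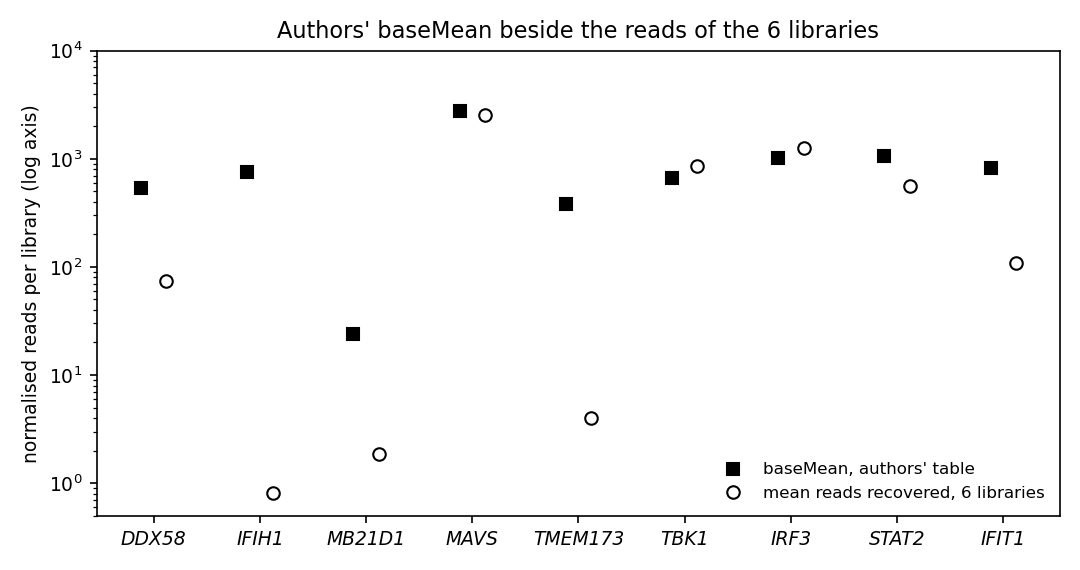
The baseMean of the authors' deposited table (squares) beside the mean of depth-scaled reads recovered from the 6 libraries (circles) for the 9 genes, on a log axis in normalised reads per library. The 2 marks lie closest for MAVS, TBK1 and IRF3, while STAT2 has 1053 against 566. They lie further apart for DDX58 (540 against 74.0), IFIT1 (818 against 109) and MB21D1 (23.9 against 1.87). The gap is widest for IFIH1 (752 against 0.817) and TMEM173 (386 against 4.01).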

How the data were processed

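RNA of 6 HEK293 libraries was prepared with an mRNA kit, per the labels' protocols. Per the submitters' processing notes, the tools included RSEM 1.3.0, STAR 2.5.2b, DESeq2 1.20.0 and cutadapt 1.14, with the build hg19 and no roles or settings. The authors deposited CPM for 30960 genes, taken from the table's name as RSEM counts scaled with TMM factors. Their second deposited table holds, per the file headers, p-values with and without adjustment, a log2 fold change, a Wald statistic and standard error (scores) and baseMean, a mean normalised signal. All deposited CPM values (100%, tolerance 0.01 reads) were whole multiples of 1 read, from which reads were recovered, and edgeR called 11 genes and DESeq2 253 on them.

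The test was limma 3.58.1 (trend, 2-sided) in R 4.3.3 on log2(CPM + 1), which understates changes of low genes. Other tools were edgeR 4.0.16, DESeq2 1.42.0, scipy 1.17.1 and matplotlib 3.10.9, and the tests were tried on simulated counts. Positions and exon lengths come from GENCODE 29 on GRCh38 (30795 identifiers matched, 165 did not), not from the authors' alignment. Genes named are the 9 members, any listed gene past the threshold, the 3 smallest p and the 2 highest levels of each list, and the 3 most like IFIT1. Others are said to be named with values known, and a few genes of the rule are not reported here. Members and lists were chosen with earlier results of these data known. The alternatives were other pseudocounts (0.25 and 5), filters (none and 5 CPM), scalings, a replicate block, limma without a trend, both count tools, each library left out, and, added after seeing the data, removal of the exon length trend (lowess).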

Additional observations from a re-analysis of the deposited data

Results flagged for a closer look

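Of the 9 genes, 3 were nearly without reads in the 6 libraries and yet had a higher baseMean in the authors' deposited table, which none of the tests run here uses. All 2069 genes with 0 reads in the 6 libraries have a baseMean above 0 there. A baseMean can therefore not be read as the mean of these 6 libraries. The baseMean of the authors' deposited table was 752 for IFIH1, 386 for TMEM173 and 23.9 for MB21D1, where the 6 libraries averaged 0.817 reads for IFIH1, 4.01 for TMEM173 and 1.87 for MB21D1. Each lies above the depth-scaled reads of every inPKI library. The same table holds 27 of the 31 interferon-stimulated genes below 1 CPM in all 6 libraries with a high value: their baseMean in the authors' deposited table was at least 100. Of all 15915 genes below 1 CPM in all 6 libraries, 619 had a baseMean of at least 100 there. The cause was not tested.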

How the results depend on the processing

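Of the 9 members 0 passed the threshold under any of the 16 alternatives or with the length trend removed, but not every setting tested all of them. IFIH1, MB21D1 and TMEM173 entered only the fit with no filter (limma adjusted p = 0.894, 0.761 and 0.672). DDX58 and IFIT1 did not enter at the filter of 5 CPM, and DESeq2 gave an adjusted p only to MAVS, TBK1 and IRF3. The count of all genes past the threshold, 18 (14 higher and 4 lower), was 4 with no filter, 4 without a trend, 11 with columns rescaled to an equal sum (10 higher and 1 lower), 11 by edgeR (10 and 1), 253 by DESeq2 (119 and 134) and 10 with the length trend removed (10 and 0). Leaving out 1 library gave 9 to 114, the lowest without inPKI B and the highest without PKI B. The count of members whose groups do not overlap, 2 as reported, was 2 to 5 with 1 library left out. The share of all genes tested was then 27.5% to 33.8%, beside 19.7% with all 6 libraries. The 5, found without PKI A, are 4 of the 6 tested genes and TMEM173, which was not tested. With the length trend removed the count was 1, where the share of all genes tested was 16.9%. The count of pathway genes past the threshold, 0 as reported, was 3 by DESeq2 and 0 to 1 with 1 library left out (PRKDC, without PKI C). Of 608 values of the log2 change of named genes, 588 kept their sign, and 0 of 36 member levels moved by an SD under rescaling. The replicate block gave 124 genes and 0 members. Same-lettered libraries had correlated deviations of 0.0138 to 0.0283, all below the 0.1 set as the mark of pairing. Yet 6 of 6 libraries correlated best with their own letter, so whether the letters pair the libraries was left undecided. The causes were not tested. At 17244715 to 23589438 recovered reads per library, no difference in IFIH1, MB21D1 or TMEM173 was detectable.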

Other observations

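TREX1, the main nuclease that clears DNA from the cytosol, ranged widely within both groups. It was singled out after its values were seen. It had 0, 12 and 4 reads in PKI A, B and C, against 10, 24 and 0 reads in inPKI A, B and C. The gene did not enter the test.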
